A study of Mus musculus with 24 samples.

Results

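Open chromatin was measured around developmental homeobox and Pax genes outside the Hox clusters in neuronal nuclei of mouse striatum. The members are the peaks whose annotated gene, the gene with the nearest transcription start, is 1 of 47 named genes of the Pax, Nkx, Six2/Six6, Lhx, Irx, Emx, Otx, Gbx, En, Msx, Pitx, Alx, Prrx, Barhl and Evx families. Of 147020 deposited peaks, 367 met this rule, and 364 of them passed the filter on low counts, among 146155 tested peaks in all. They belong to 45 genes, with 1 to 22 tested peaks a gene and a median of 6. None of the deposited peaks is named for Nkx2-2 or Lhx1. The nearest gene need not be the gene that a peak regulates.

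The study asked how loss of the mismatch repair gene Msh3 changes chromatin in mice with an expanded huntingtin gene. ATAC-seq, in which the transposase Tn5 cuts and tags accessible DNA, was run on nuclei that carry NeuN, a protein of most neuronal nuclei, sorted from frozen striatum of C57BL/6 mice aged 12 months. Each of the 4 genotypes had 6 animals, 3 female and 3 male. Q140 animals were heterozygous for an Htt knock-in allele with an expanded CAG repeat, the change that causes Huntington's disease, and had intact Msh3. Q140_Msh3KO animals carried the same heterozygous knock-in allele and were Msh3-/-. Msh3KO animals were Msh3-/- and had normal Htt, and WT animals were wild type at both genes. Replicates were taken as separate animals, since the labels count 6 mice a genotype. Codes in the labels share a leading number across some animals of different genotypes, and what that number marks is not stated. It was not modelled, so any shared litter or cage is not accounted for in the p-values. In such bulk samples, a change in the number of cells of a type and a change in accessibility per cell cannot be told apart.

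Homeobox genes encode transcription factors that bind DNA through a homeodomain, and Pax genes encode factors that bind through a paired domain, in some members together with a homeodomain. They assign position and cell identity in the embryo, including the divisions of the forebrain. In mature neurons many of them are kept silent by Polycomb repressive complexes, which cover their CpG-rich starts and much of the surrounding DNA.

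Total counts in peaks ran from 4372251 to 11736557 per library. In Q140_Msh3KO male 1 (M1) the 10 strongest peaks took 12.665% of the counts, against 2.519% to 6.821% in the other libraries. Promoter peaks were present for 12 of 12 markers of spiny projection neurons, the main neurons of the striatum, and summed to 343 to 469 CPM (counts scaled to sequencing depth with TMM library sizes) in Q140, 336 to 430 in Q140_Msh3KO, 343 to 477 in Msh3KO and 377 to 527 in WT. For microglia, 2 of 8 markers had promoter peaks, which summed to 3.82 to 9.74 CPM over all animals. Promoters of oligodendrocyte lineage markers, at 8 of 10 genes, summed to 48.7 to 71.5 CPM. Several members mark cortical progenitors or neurons, so cortical glutamatergic markers were read as well. Their promoters, at 5 of 9 genes, summed to 37.2 to 47.7 CPM in Q140, 35.4 to 43.8 in Q140_Msh3KO, 32.8 to 44.7 in Msh3KO and 34.8 to 43.1 in WT. The deposited peaks do not check the genotypes: the Msh3 promoter averaged 70.7 ± 7.66 CPM in Msh3KO and 70.3 ± 9.46 in WT (SD, n = 6 each), and 0 of 6 Msh3 peaks passed the test in Msh3KO against WT.

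Member peaks were mostly small, distal and weakly open. Their median width was 349.5 bases, against 397 bases over all tested peaks. Their median accessibility in WT was 7.21 CPM per kb of peak, against 8.77 over all tested peaks. The median distance to a start was 37.4 kb, against 28.8 kb over all tested peaks, and 155 of the 364 lay over 50 kb away. Of the 364 peaks, 86 lay inside the gene they are named for, 97 inside another gene and 181 between genes. At the 32 genes with a peak within 1 kb of the start, the nearest such peak had a median of 2.77 CPM in WT, and all tested peaks within 1 kb of any start had 13.7. The deposited annotation gives a CpG island label only to intronic and intergenic peaks, and 29 of the 364 members (7.97%) carried it, against 1.81% of all tested peaks.

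Promoter sequences from RefSeq (build GRCm38.p6, 250 bases before to 50 bases after each start) were found for 37 of the 47 genes, in 46 windows. The windows held a median of 18.5 CG dinucleotides, against 7 over 32851 mouse promoter windows, and a median of 60.3% G and C against 52.7%. The homeodomain core TAATTA, read on both strands, occurred in 13.0% of the member windows and 5.29% of all windows. The Otx and Pitx core TAATCC occurred in 4.35% of the member windows and 7.06% of all windows. A match is a string of letters and not a shown binding site. The 3 windows below each share bases with a start-proximal peak that passed a test described further on. They are a RefSeq start of Pax2 at chr19:44756656-44756955, which shares 86 bases with its peak, and the start of Pax9 at chr12:56695221-56695520, which shares 87. The third is the start of Six6 at chr12:72939632-72939931, which lies wholly inside its peak. All are on the plus strand and written 5′ to 3′, and capitals mark each CG, of which Pax2 has 30, Pax9 has 11 and Six6 has 20. The Pax9 window, with 47.0% G and C, lies below the member medians of 18.5 CG and 60.3%. Those of Pax2 and Six6 lie above both. None of the 3 holds TAATTA or TAATCC.
Pax2: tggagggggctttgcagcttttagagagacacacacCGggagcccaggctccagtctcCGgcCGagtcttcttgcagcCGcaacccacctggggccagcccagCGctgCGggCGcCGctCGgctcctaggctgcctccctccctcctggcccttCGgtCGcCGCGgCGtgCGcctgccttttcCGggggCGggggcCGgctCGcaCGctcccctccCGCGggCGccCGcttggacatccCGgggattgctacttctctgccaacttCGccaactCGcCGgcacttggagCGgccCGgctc
Pax9: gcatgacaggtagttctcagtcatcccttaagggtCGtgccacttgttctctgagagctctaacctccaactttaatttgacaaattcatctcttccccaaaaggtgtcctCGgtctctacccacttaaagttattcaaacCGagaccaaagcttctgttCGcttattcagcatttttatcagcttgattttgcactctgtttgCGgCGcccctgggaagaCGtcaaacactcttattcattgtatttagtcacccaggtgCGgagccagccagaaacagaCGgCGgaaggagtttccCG
Six6: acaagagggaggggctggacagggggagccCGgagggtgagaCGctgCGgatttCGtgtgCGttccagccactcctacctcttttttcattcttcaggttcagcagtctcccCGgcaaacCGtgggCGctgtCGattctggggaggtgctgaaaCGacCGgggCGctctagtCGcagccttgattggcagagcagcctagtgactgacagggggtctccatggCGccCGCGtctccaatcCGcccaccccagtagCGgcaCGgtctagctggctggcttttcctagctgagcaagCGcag

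Several peaks each of Pax6, Pax2 and Emx2 were more open in Q140 animals than in WT animals, as were 1 of 8 peaks of Irx5 and 1 of 18 of Gbx2. Peaks that fell were spread over 8 genes with 1 peak each, among them En2, Lhx8 and Alx4, of which Lhx8 and Alx4 also had 1 peak that rose. Of the 364 tested member peaks, 28 rose (7.69%) and 8 fell (2.20%) in Q140 against WT (edgeR's quasi-likelihood test, Benjamini-Hochberg adjusted p under 0.05 over all tested peaks). Over all tested peaks, 4.2% rose and 6.11% fell. At an unadjusted p under 0.05, 62 members were higher and 14 lower, against 9.33% and 11.9% of all tested peaks. Without WT F2, or without WT M1, 5 members fell in place of 8, and 7687 or 7068 of all tested peaks fell in place of 8924. The median log2 fold change of the members was 0.11, against -0.01 for all tested peaks, and 65.1% of members had a value above 0, against 49.0%. All 6 Q140 animals lay above all 6 WT animals at 18 member peaks (4.95%, against 2.07% of all tested peaks). All 6 lay below at 4 member peaks (1.1%, against 3% of all tested peaks). Member by member, the median deviation from the WT mean on the log2 CPM scale was 0.03 to 0.29 in the Q140 animals, -0.08 to 0.09 in Q140_Msh3KO, -0.14 to 0.19 in Msh3KO and -0.14 to 0.10 in WT. The ranges of Q140 and WT overlap on this summary.

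**Figure D1:**
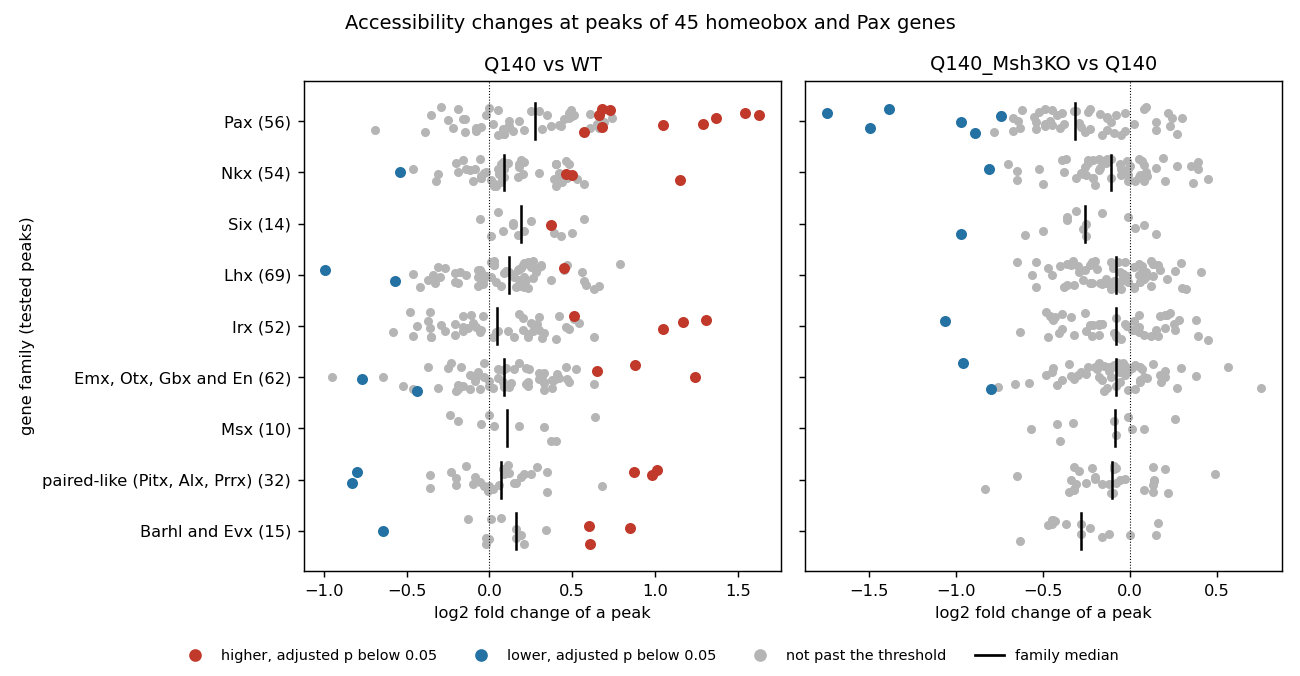
Log2 fold change of each of the 364 tested member peaks (x axis) by gene family (y axis, number of tested peaks in brackets), for Q140 against WT (left) and Q140_Msh3KO against Q140 (right). Colour marks peaks with adjusted p under 0.05 and the black bars are family medians. In the left panel 28 peaks rose and 8 fell, 10 of the 28 in the Pax family, and in the right panel 11 fell and 0 rose. The panels share the Q140 animals.

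The Pax family held the most called peaks. Of its 56 tested peaks, 10 rose (17.9%) and 0 fell in Q140 against WT, with a family median of 0.28. Over all tested peaks, 4.2% rose and 6.11% fell. Pax6, a regulator of eye and cortical progenitors, had 6 tested peaks with values above 0, and 4 of them rose. The strongest lies in an intron of Elp4, a neighbouring gene whose introns are known to hold distant Pax6 enhancers (chromosome 2, 105786162 to 105786485, 104 kb from the start). It had 3.42 CPM in the lowest Q140 animal, a median of 4.24 and 5.44 in the highest, against 0.912, 1.28 and 2.00 CPM in WT. These values rest on 27 to 62 counts per Q140 library and 6 to 17 per WT library. Every Q140 animal was above every WT animal, and the log2 fold change was 1.63 ± 0.21 (SE, edgeR's quasi-likelihood test, adjusted p = 5.8e-07). A further Elp4 intron peak at 55 kb rose by 1.05 ± 0.24 on the log2 scale. Inside Pax6, an intronic peak (105688729 to 105688999) rose by 1.54 ± 0.26, and the promoter peak at 105674937 rose by 0.68 ± 0.16.

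Pax2, which builds the kidney, the optic stalk and the boundary of midbrain and hindbrain, had 13 tested peaks, of which 11 had values above 0 and 3 rose. All 3 lie upstream of the start. The peak at -74.4 kb (chromosome 19, 44671868 to 44672509), which has the CpG island label, had 5.31, 6.61 and 9.03 CPM in the lowest, median and highest Q140 animal, against 2.17, 2.84 and 3.43 in WT. The 2 groups did not overlap, and the change was 1.29 ± 0.18 (adjusted p = 1.3e-06 by edgeR's quasi-likelihood test). The Pax2 peaks at -62.2 kb and -19.9 kb rose by 0.73 ± 0.17 and 1.37 ± 0.30. Pax3, a factor of neural crest and muscle precursors, had 2 of 14 peaks that rose. Pax9, a factor of pharyngeal pouch and tooth development, had 1 of 5, and this is the peak over the start shown above. It gave 0.68 ± 0.20 (adjusted p = 0.0166), with 4.11 CPM on average in Q140 and 2.58 in WT. Pax1, Pax5, Pax7 and Pax8 had 0 called peaks.

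Among the forebrain and midbrain patterning genes (Emx, Otx, Gbx and En), 3 of 62 peaks rose (4.84%) and 2 fell (3.23%). The share that rose is near the 4.2% of all tested peaks, of which 6.11% fell. Emx2, which sets cortical areas, had 4 tested peaks with values above 0, and 2 of them rose. Its peak 14.3 kb past the start (chromosome 19, 59472763 to 59473318) had 6.85, 8.41 and 9.62 CPM in the lowest, median and highest Q140 animal, against 2.37, 3.38 and 5.13 in WT. The groups did not overlap at this peak, which changed by 1.24 ± 0.17 (edgeR's quasi-likelihood test, adjusted p = 1.0e-06). The Emx2 promoter peak rose by 0.65 ± 0.20. Gbx2, a factor of the anterior hindbrain and thalamus, had 1 peak of 18 that rose, an intergenic one with the CpG island label at -10.9 kb (chromosome 1, 89941808 to 89942383). It had 7.68, 8.90 and 10.2 CPM in Q140 and 2.88, 4.78 and 6.81 in WT, again with no overlap, and changed by 0.88 ± 0.17. En2, a midbrain and cerebellar gene, went the other way at the intergenic peak 28.7 kb upstream (chromosome 5, 28136755 to 28137191). That peak had 1.26, 2.42 and 2.87 CPM in Q140 and 3.28, 3.83 and 4.23 in WT, with Q140 wholly below WT, and changed by -0.77 ± 0.18. It lies within 20 Mb of Htt, where the knock-in allele and its linked DNA cannot be told apart. Emx1, a marker of the dorsal telencephalon, had 1 of 17 peaks that fell, at -0.44 ± 0.14 inside Sfxn5, a call lost in 14 of the 24 fits that left out 1 library. Otx1, Otx2 and En1 had 0 called peaks.

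Of 52 Irx peaks, 4 rose (7.69%) and 0 fell, where 4.2% of all tested peaks rose and 6.11% fell. Irx genes encode Iroquois homeodomain factors of neural and heart patterning. The Irx5 peak at 11.1 kb (chromosome 8, 92368572 to 92369257) had 6.38, 8.61 and 10.9 CPM in the lowest, median and highest Q140 animal, against 2.70, 3.17 and 5.28 in WT. Q140 lay wholly above WT, and the change was 1.31 ± 0.18 (adjusted p = 2.1e-06, edgeR's quasi-likelihood test). Irx1 had 2 peaks that rose and Irx3 had 1. Of 54 Nkx peaks, 3 rose (5.56%) and 1 fell (1.85%), against the same 4.2% and 6.11% of all tested peaks. Nkx2-5, a heart factor, had 6 tested peaks with values above 0, and 2 of them rose. Nkx3-2, a skeletal factor, had 1 of 9 peaks that rose, also within 20 Mb of Htt. Nkx6-2, a factor of the ventral neural tube and oligodendrocytes, had 1 of 22 that fell, at -0.54 ± 0.17 inside Inpp5a, a call lost in 7 of the 24 fits that left out 1 library. Nkx2-1, the selector of ventral forebrain interneurons, had 0 of 5 called.

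Of 69 Lhx peaks, 1 rose (1.45%) and 2 fell (2.9%), against 4.2% and 6.11% of all tested peaks. Lhx8, required for cholinergic neurons of the basal forebrain and striatum, had both directions in introns of Slc44a5. Its peak at 145 kb (chromosome 3, 154185645 to 154186150) had 3.90, 4.68 and 5.46 CPM in Q140 and 5.86, 6.99 and 8.49 in WT, wholly lower in Q140, with a change of -0.57 ± 0.14. The Lhx4 peak inside Acbd6 fell by 0.99 ± 0.26 on the log2 scale. Among 32 paired-like peaks (Pitx, Alx, Prrx), 3 rose (9.38%) and 2 fell (6.25%). The lower of these at Alx1, -0.83 ± 0.27 in its own intron, lost its call in 13 of the 24 fits that left out 1 library. Alx4, a limb and skull factor, had a peak in its own intron at 0.87 ± 0.18 and a peak inside Ext2 (chromosome 2, 93714552 to 93715136) at -0.80 ± 0.15. The Ext2 peak had 3.40, 4.16 and 4.96 CPM in Q140 and 6.16, 6.82 and 9.39 in WT, without overlap. Evx1 and Evx2, homologues of fly even-skipped, lie next to the Hoxa and Hoxd clusters, and each had 1 peak that rose (0.61 ± 0.15 and 0.85 ± 0.28). Barhl1 had 1 of 6 that rose and Barhl2, a factor of the retina and spinal cord, had 1 of 6 that fell, at -0.64 ± 0.17. Without WT F2 the Barhl2 peak gave -0.49 (edgeR's quasi-likelihood test, adjusted p = 0.0517). Of the 14 peaks of Six2 and Six6, 1 of Six2 rose, and of 10 Msx peaks 0 passed the test, with 0 also at an unadjusted p under 0.05.

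**Figure D2:**
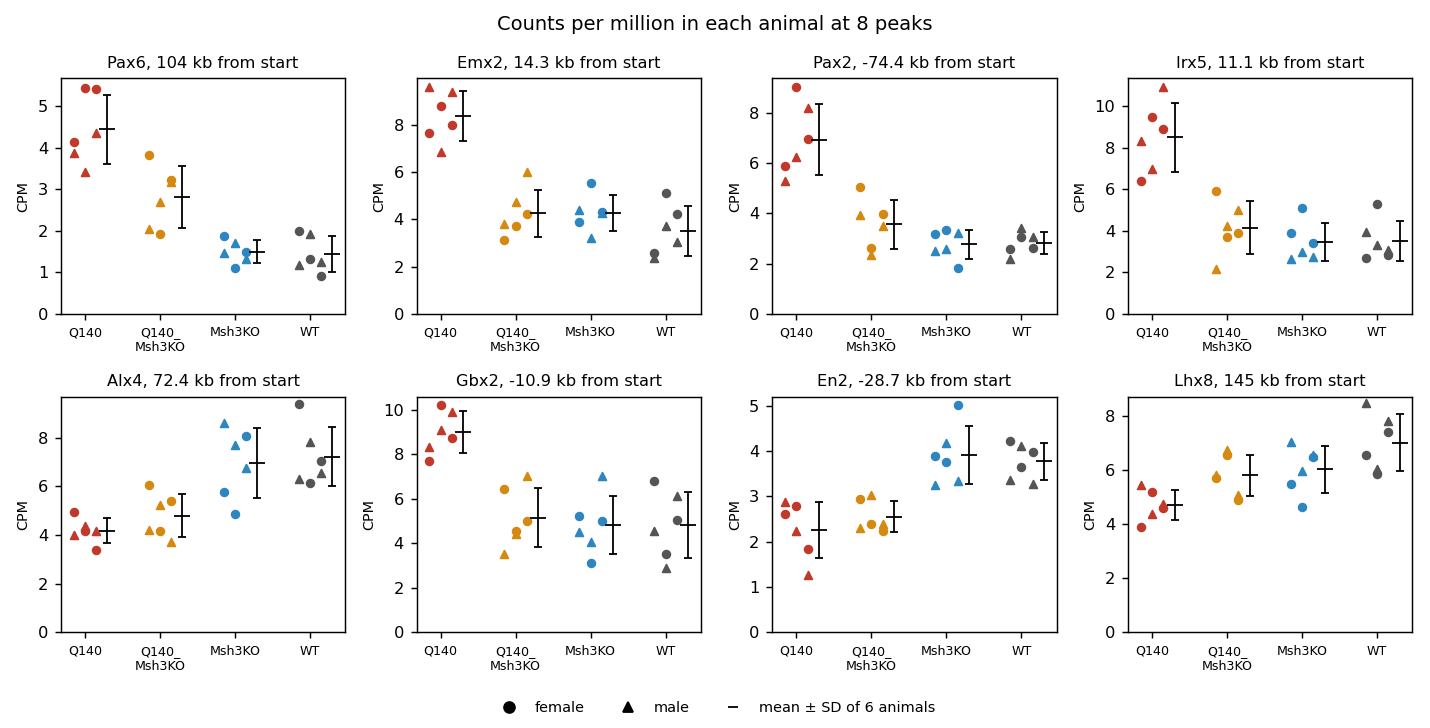
TMM-scaled CPM in each animal (circles female, triangles male) at the 8 peaks of smallest p in Q140 against WT, 1 per gene, with mean ± SD of 6 animals beside the points. Q140 lies wholly above WT at the Pax6, Emx2, Pax2, Irx5 and Gbx2 peaks and wholly below WT at the Alx4, En2 and Lhx8 peaks, and these 8 were chosen for a small p.

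Of the 28 that rose, 15 lay between genes, 7 inside the gene they are named for and 6 inside another gene, at a median distance of 12.7 kb. Of the 8 that fell, 5 lay inside another gene (Ext2, Acbd6, Slc44a5, Inpp5a and Sfxn5), 2 between genes and 1 inside Alx1, at a median of 59.0 kb. The positions of the 2 sets were not tested against each other. Within 1 kb of a start, 4 of 44 member peaks rose (9.09%) and 0 fell, and 72.7% had a value above 0. The promoter class of the annotation is a different set, which holds 21 of the member peaks. Of all 10167 peaks in this class, 1.87% rose, 1.47% fell and 65.1% had a value above 0. With the CpG island label, 5 of 29 members rose (17.2%) and 0 fell, where 2.83% of all 2651 labelled peaks rose and 0.868% fell. Their median log2 fold change was 0.45, with 89.7% above 0, against 0.07 and 69.3% over all labelled peaks, and the other 335 members had a median of 0.09. Of 38 member genes with 3 or more tested peaks, Emx2, Msx2, Nkx2-5, Pax6 and Six6 had every value above 0, and 0 genes had every value below 0.

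Summed over all peaks of a gene, 9 of 45 genes rose and 0 fell in Q140 against WT, where 4.96% of 20851 gene sums rose and 7.94% fell. The 9 are Emx2 (0.89 ± 0.13), Pax6 (0.86 ± 0.10), Evx1 (0.61 ± 0.14), Pax2 (0.58 ± 0.10), Evx2 (0.57 ± 0.19), Nkx2-5 (0.54 ± 0.11), Irx5 (0.33 ± 0.09), Irx6 (0.26 ± 0.08) and Six2 (0.22 ± 0.07), as log2 fold change ± SE. The Evx2 call was lost with replicate number as a block (adjusted p = 0.0522, edgeR's quasi-likelihood test) and without Q140 F2 and Q140_Msh3KO M1 together (adjusted p = 0.0684). The Evx1 sum rests on 1 peak and the Evx2 sum on 2. Values above 0 were found for 36 of 45 genes, against 50.8% of all gene sums. Q140 and WT did not overlap for Pax2, at 39.8 to 46.1 CPM in Q140 and 21.1 to 34.7 in WT, nor for Pax6, at 22.3 to 28.3 in Q140 and 11.1 to 16 in WT. They did not overlap for Emx2 either, at 13.4 to 18.1 CPM in Q140 and 6.34 to 10.3 in WT. Nkx2-5 and Evx1 also had no overlap. For Irx5 the groups overlapped, at 22.6 to 26.5 CPM in Q140 and 16.2 to 27.3 in WT. They also overlapped for Irx6, at 24.3 to 30.8 and 18.8 to 25.7, and for Six2 and Evx2. The share of all gene sums without overlap was not computed.

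**Figure D3:**
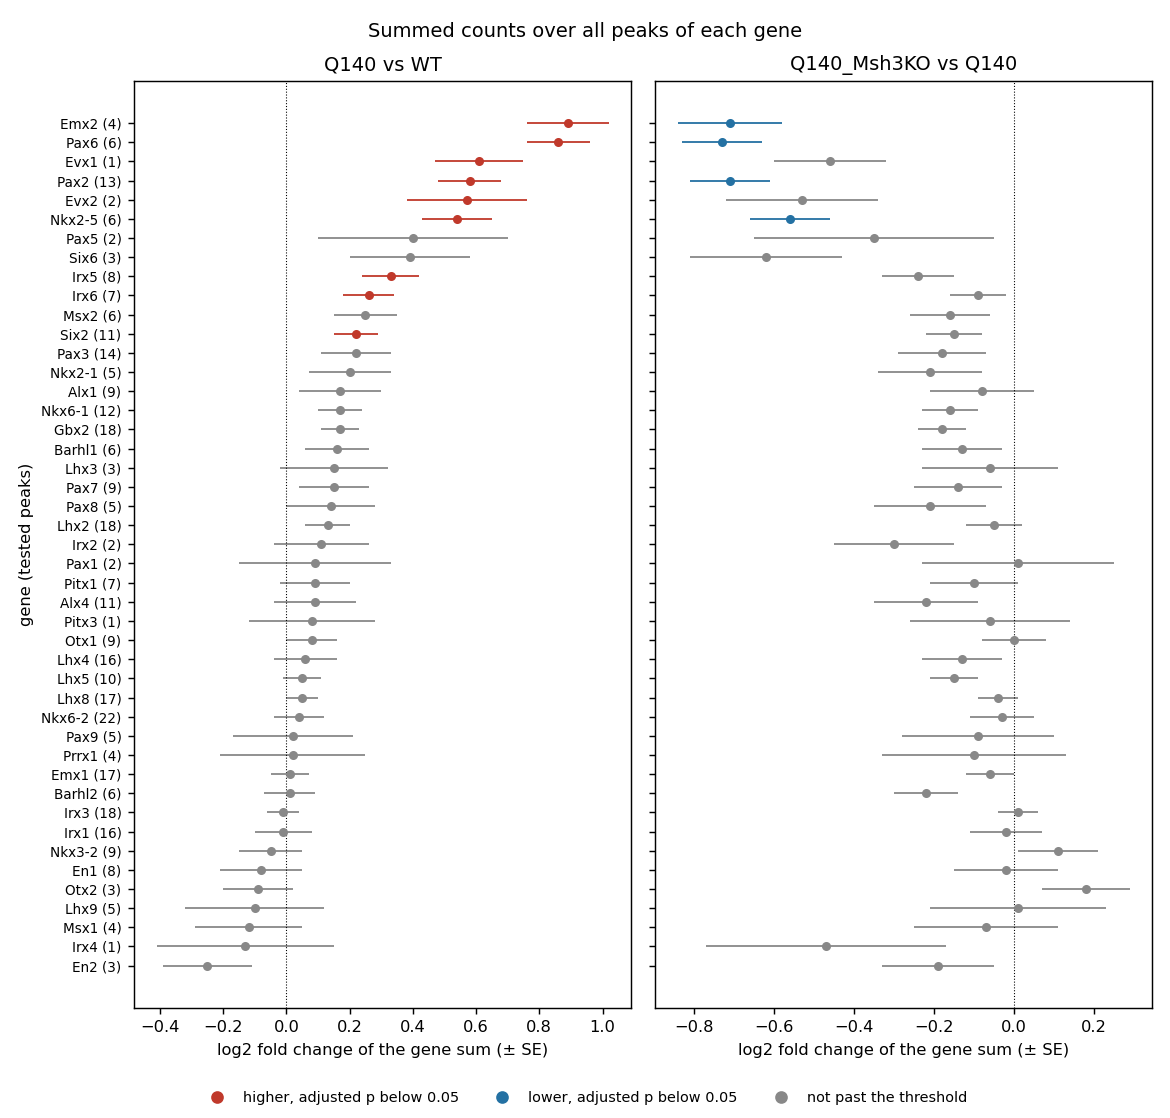
Log2 fold change ± SE (x axis) of the counts summed over all deposited peaks of each of the 45 genes (y axis). Brackets give the number of tested peaks. The comparisons are Q140 against WT (left) and Q140_Msh3KO against Q140 (right). In the left panel 9 sums rose and 0 fell, and in the right panel those of Pax6, Pax2, Emx2 and Nkx2-5 fell and 0 rose. The panels share the Q140 animals.

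Without Msh3, animals with the knock-in allele had less accessible chromatin at a part of these loci. In Q140_Msh3KO against Q140, 11 of 364 member peaks fell (3.02%) and 0 rose, where 0.219% of all tested peaks fell and 0.31% rose. At an unadjusted p under 0.05, 7 members were higher and 46 lower by edgeR (against 5.75% and 3.75% of all tested peaks), 4 and 41 by DESeq2, and 9 and 45 by limma-voom. Without Q140 F2 and Q140_Msh3KO M1 together, 6 members fell in place of 11, and 72 of all tested peaks fell in place of 320. The member median was -0.12, against 0.00 over all tested peaks, and 69.8% of members had a value below 0, against 49.5%. All 6 Q140_Msh3KO animals lay below all 6 Q140 animals at 16 member peaks (4.4%, against 0.377% of all tested peaks) and above them at 1 (0.275%, against 0.641%). This comparison shares its Q140 animals with that of Q140 against WT and is no independent repeat of it.

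The Pax family had 6 of the 11. The Pax2 peaks at -74.4, -62.2 and -19.9 kb, described above, fell by 0.97 ± 0.17, 0.89 ± 0.17 and 1.74 ± 0.31 on the log2 scale. An intronic Pax2 peak with the CpG island label (44750139 to 44751082) had 3.70, 3.98 and 4.86 CPM in the lowest, median and highest Q140_Msh3KO animal, against 6.25, 6.90 and 7.92 in Q140. Q140_Msh3KO lay wholly below Q140 there, and the change was -0.74 ± 0.16 (-0.69 without Q140_Msh3KO F2, edgeR's quasi-likelihood test, adjusted p = 0.0737). This intronic peak was not called in Q140 against WT, where it gave 0.55 ± 0.22 in females and 0.36 ± 0.23 in males. The peak over the RefSeq start of Pax2 shown above (44756870 to 44757074) had 0.581, 0.984 and 1.43 CPM in Q140_Msh3KO and 1.72, 2.43 and 3.90 in Q140. The groups did not overlap at this peak, on 5 to 12 and 12 to 33 counts. It changed by -1.38 ± 0.31 (edgeR's quasi-likelihood test, adjusted p = 0.0237), and in Q140 against WT it gave 0.66 ± 0.29 (adjusted p = 0.164). The call against Q140 was lost in 6 of the 24 fits that left out 1 library. Another peak (44755619 to 44755881) lies nearest a Pax2 start in the deposited annotation, and it was not called. It gave -0.62 ± 0.23 in Q140_Msh3KO against Q140 (edgeR's quasi-likelihood test, adjusted p = 0.29) and 0.65 ± 0.24 in Q140 against WT (adjusted p = 0.0727). The sixth Pax peak is the intronic Pax6 peak at 105688729, with 0.675, 1.04 and 1.74 CPM in Q140_Msh3KO and 2.53, 3.06 and 3.66 in Q140. It fell by 1.49 ± 0.26 on the log2 scale. The Pax6 peak in Elp4 at 104 kb gave -0.67 ± 0.19 (adjusted p = 0.0888).

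The other 5 peaks belong to Irx5, Emx2, Nkx2-5, Gbx2 and Six6. The Irx5 peak had 2.17, 4.06 and 5.91 CPM in Q140_Msh3KO and 6.38, 8.61 and 10.9 in Q140, and changed by -1.06 ± 0.18 (adjusted p = 9.6e-04, edgeR's quasi-likelihood test). The Emx2 peak at 14.3 kb had 3.13, 4.01 and 6.00 CPM in Q140_Msh3KO, below every Q140 animal, and changed by -0.96 ± 0.16. The Gbx2 peak fell by 0.80 ± 0.17 and lost its call without Q140_Msh3KO F2 and without Q140_Msh3KO M1, where edgeR's adjusted p was at least 0.0568. An exonic Nkx2-5 peak (chromosome 17, 26838972 to 26839754) fell by 0.81 ± 0.16. The Six6 promoter peak, over the start shown above, had 1.22, 1.84 and 2.60 CPM in Q140_Msh3KO and 2.81, 4.07 and 4.73 in Q140, again without overlap. Six6, a factor of the eye and hypothalamus, thus had its start peak at -0.97 ± 0.22 (adjusted p = 0.0245 by edgeR's quasi-likelihood test), and the same peak gave 0.50 ± 0.21 in Q140 against WT (adjusted p = 0.144). The call against Q140 was lost in 7 of the 24 fits that left out 1 library. None of the 11 lies within 20 Mb of Htt or Msh3.

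Gene sums gave 4 genes that fell and 0 that rose, where 0.264% of all gene sums fell and 0.379% rose. Pax6 fell by 0.73 ± 0.10 on the log2 scale, Pax2 by 0.71 ± 0.10, Emx2 by 0.71 ± 0.13 and Nkx2-5 by 0.56 ± 0.10. Without Q140 F2 and Q140_Msh3KO M1 together, the sums of Emx2 (adjusted p = 0.0519, edgeR's quasi-likelihood test) and Nkx2-5 (adjusted p = 0.0702) missed the threshold. The Pax2 sum had 21.6 to 30.3 CPM in Q140_Msh3KO and 39.8 to 46.1 in Q140, and the Pax6 sum 13.9 to 16.9 in Q140_Msh3KO and 22.3 to 28.3 in Q140, without overlap for either. Values below 0 were found for 39 of 45 genes, where 49.4% of all gene sums were above 0. Of the 32 peaks nearest a start, 29 had a value below 0, with a median of -0.32, and only that of Six6 passed the test. All peaks of the promoter class, a set chosen by another rule than the 32, also leaned below 0 in this comparison. Of these, 60.8% were below 0, with a median of -0.03.

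**Figure D4:**
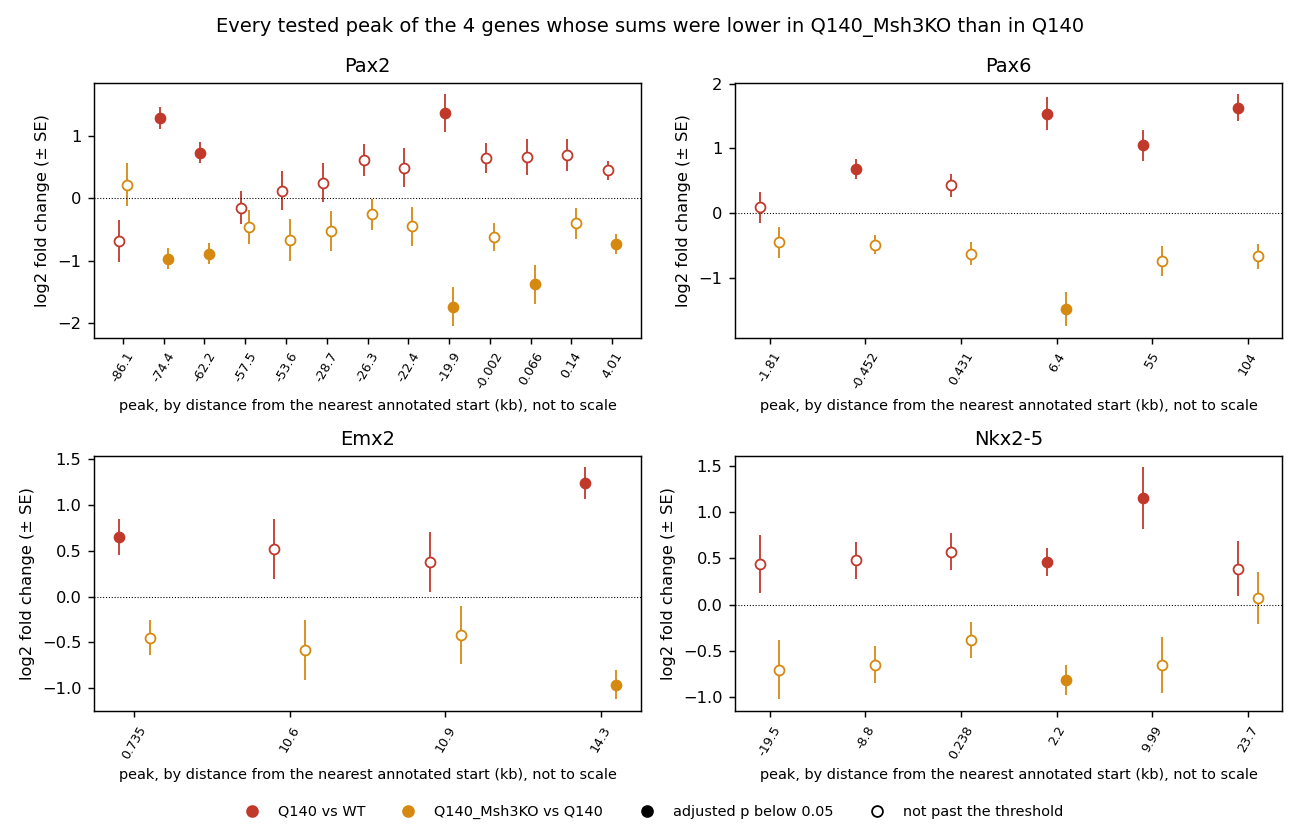
Log2 fold change ± SE (y axis) at every tested peak of Pax2, Pax6, Emx2 and Nkx2-5, ordered by distance from the nearest annotated start in kb (x axis, not to scale), for Q140 against WT (red) and Q140_Msh3KO against Q140 (orange). Filled points have adjusted p under 0.05. All values of Q140 against WT at Pax6, Emx2 and Nkx2-5 are above 0, and at Pax2 11 of 13 are.

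With Msh3 absent from both groups, the knock-in allele gave 0 called member peaks: in Q140_Msh3KO against Msh3KO, 0 rose and 0 fell, where 0.0233% of all tested peaks rose and 0.0924% fell. At an unadjusted p under 0.05, 9 members were higher and 6 lower by edgeR (against 3.32% and 4.35% of all tested peaks), 9 and 6 by DESeq2, and 10 and 5 by limma-voom. The member median was -0.03. The 28 peaks that rose in Q140 against WT were chosen on animals that do not enter this comparison. In Q140_Msh3KO against Msh3KO, 22 of these 28 had a value above 0 (78.6%), with a median of 0.12, a range of -0.28 to 0.87, and 3 at an unadjusted p under 0.05. All 6142 peaks of any gene that rose in Q140 against WT had a median of 0.25 in this comparison, and 88.1% were above 0. The 8 member peaks that fell had 8 values below 0 and a median of -0.33, and the 8924 peaks of any gene that fell had a median of -0.26.

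Against WT, Q140_Msh3KO animals had 1 member peak that rose (0.275%) and 0 that fell, where 0.252% of all tested peaks rose and 0.274% fell. It is the Pax6 peak in Elp4 at 104 kb, with 1.91, 2.93 and 3.82 CPM in the lowest, median and highest Q140_Msh3KO animal and 0.912, 1.28 and 2.00 in WT. The groups overlap slightly, and the change was 0.96, with an adjusted p of 0.0346 by edgeR's quasi-likelihood test. The adjusted p was over 0.05 in 8 of the 24 fits that left out 1 library, up to 0.122. At an unadjusted p under 0.05, 16 members were higher and 14 lower, against 4.63% and 5.19% of all tested peaks. Msh3KO animals gave 0 called member peaks against WT (0.00684% of all tested peaks rose and 0.00616% fell). At an unadjusted p under 0.05, 6 members were higher and 4 lower by edgeR (against 1.79% and 1.55% of all tested peaks), 5 and 2 by DESeq2, and 4 and 5 by limma-voom.

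**Figure D5:**
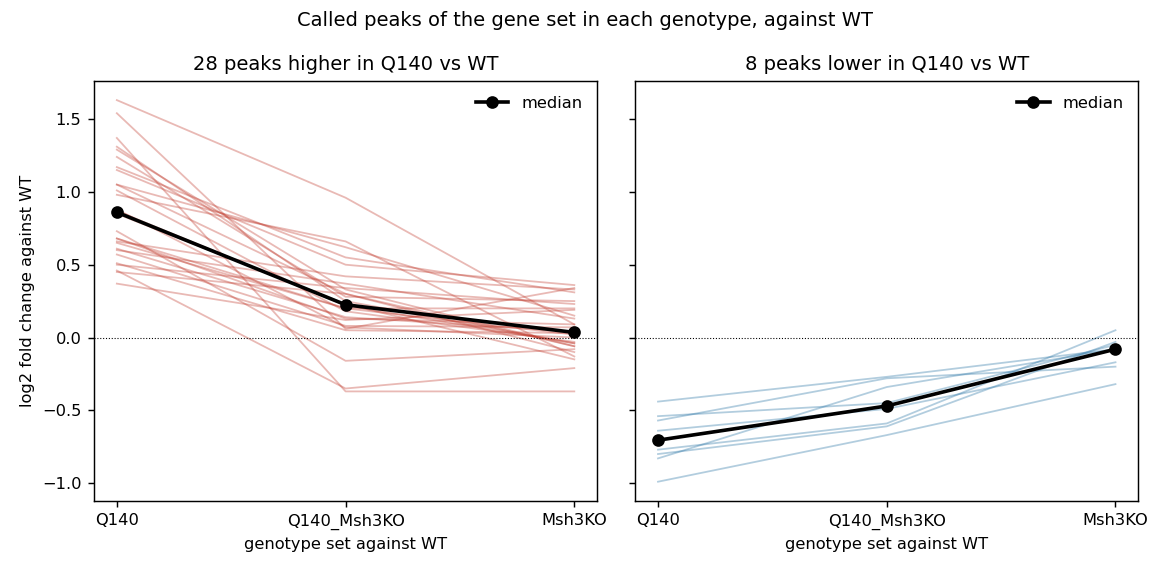
Log2 fold change against WT (y axis) in Q140, Q140_Msh3KO and Msh3KO (x axis) for the 28 member peaks that rose (left) and the 8 that fell (right) in Q140 against WT. Thin lines are peaks and black points are medians. The medians are 0.86, 0.22 and 0.04 for the 28 and -0.70, -0.47 and -0.08 for the 8. All 3 values of a peak share the WT animals, and the peaks were chosen on the leftmost value.

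Whether the knock-in allele acted differently with and without Msh3 was tested as an interaction, the Q140_Msh3KO minus Msh3KO difference minus the Q140 minus WT difference. It was called at 1 member peak (0.275%), lower, where 0.013% of all tested peaks were called lower and 0.00958% higher. This is the Emx2 peak at 14.3 kb, with an interaction of -1.21 ± 0.24 (edgeR's quasi-likelihood test, adjusted p = 0.0497). It had 3.13, 4.01 and 6.00 CPM in Q140_Msh3KO, 3.21, 4.31 and 5.54 in Msh3KO, 6.85, 8.41 and 9.62 in Q140, and 2.37, 3.38 and 5.13 in WT. Only the Q140 animals stood apart. This call, whose adjusted p lies next to the threshold, was lost in 18 of the 24 fits that left out 1 library. Among gene sums the interaction was called for Pax6 alone, at -0.78 ± 0.15 (adjusted p = 0.0238), where 0.0384% of all gene sums were called lower and 0.0336% higher. Without Q140 F2 and Q140_Msh3KO M1 together, the edgeR adjusted p of this sum was 0.0891, and no sum was refitted with 1 library left out. The member median of the interaction was -0.16, against 0.01 over all tested peaks. At an unadjusted p under 0.05, 5 members were higher and 30 lower, against 4.13% and 3.19% of all tested peaks.

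The effect of the knock-in allele was also read by sex. In females 7 member peaks rose and 3 fell in Q140 against WT (1.06% and 1.98% of all tested peaks), and in males 8 rose and 0 fell (1.33% and 1.59% of all tested peaks). The difference, female minus male, passed the test at 0 member peaks and 0 of all tested peaks, and 10 member peaks (2.75%) had an unadjusted p under 0.05, against 3.29% of all tested peaks. The Pax6 peak at 104 kb gave 1.82 ± 0.30 in females and 1.41 ± 0.32 in males, and the Emx2 peak at 14.3 kb gave 1.05 ± 0.23 in females and 1.47 ± 0.24 in males.

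Related lists gave the following counts in Q140 against WT, where 4.2% of all tested peaks rose and 6.11% fell. Of 32 peaks of Hox cluster genes, which pattern the body axis and are classic Polycomb targets, 5 rose (15.6%) and 0 fell, with a median of 0.35. In Q140_Msh3KO against Q140, 4 of the 32 fell (12.5%) and 0 rose, with a median of -0.56. Of 614 peaks of other homeobox genes, 30 rose and 30 fell (4.89% each), with a median of 0.03. In Q140_Msh3KO against Q140, 14 of these 614 fell (2.28%) and 1 rose, next to the members' 3.02% lower and the 0.219% of all tested peaks. Of 250 peaks of genes for Polycomb complex subunits, 13 rose (5.2%) and 9 fell (3.6%), with a median of 0.03. Of 449 peaks of the spiny projection neuron markers, 8 rose (1.78%) and 54 fell (12.0%), with a median of -0.15. The median of this list in Q140_Msh3KO against Q140 was 0.08. Of 79 peaks of cortical glutamatergic markers, 4 rose and 4 fell (5.06% each), and the list leaned the same way as the members. Its median was 0.09 with 62.0% above 0 in Q140 against WT, and -0.08 with 63.3% below 0 in Q140_Msh3KO against Q140, where 0 of the 79 were called. Of 30 peaks of endothelial and pericyte markers, 2 rose and 2 fell (6.67% each), with a median of 0.06. In Q140_Msh3KO against Q140, 0 of the 30 were called, with a median of -0.19 and 76.7% below 0. The part of these cell types in the members' values was not tested. The medians of the marker lists of striatal interneurons, astrocytes, oligodendrocytes and microglia ran from -0.03 to 0.05 in Q140 against WT and from -0.06 to 0.02 in Q140_Msh3KO against Q140. These lists were not tested against the members or against each other.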

How the data were processed

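The authors deposited raw read counts for 147020 peaks, a single set for all 24 libraries. The submitters' processing notes list featureCounts, MACS2, Picard, SAMtools and BWA, with the build GRCm38. Their settings, versions, duplicate handling and any shift of cut sites: not given in the sources used here. Class, nearest start and gene come from the deposited annotation. All 24 count columns were used.

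Counts were fitted with edgeR 4.0.16 (R 4.3.3): TMM, filterByExpr with a minimum count of 10, genotype and sex as terms, all 24 libraries in 1 quasi-likelihood fit with robust estimation, and Benjamini-Hochberg adjustment over all 146155 tested peaks at 0.05. CPM use TMM library sizes. Gene sums add the counts of all peaks with 1 gene symbol. The fit was tested on simulated data for Q140 against WT with 146155 peaks: of 200 changed by 1 on the log2 scale, 168 were called, and 10 calls were false. The 200 were drawn only from peaks above a floor on the median count. Recovery at weaker peaks, some members among them, was therefore not tested. Among 60 pairs of libraries of 1 genotype, 0 were identical. Peaks named singly are the up to 12 of smallest p in each direction and comparison, every call of the interaction, and the peak nearest each start within 1 kb. Per-animal values are given for these where a result turns on them. Members and lists were chosen with earlier results of these data known. DESeq2 1.42.0, limma 3.58.1 and other settings were run as alternatives. Peak sequences were not used here, as no genome was at hand.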

Additional observations from a re-analysis of the deposited data

Results flagged for a closer look

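The Emx2 peak at 59472763 and the Pax6 gene sum were called in the interaction, the test of whether the knock-in allele acted differently in animals without and with Msh3. The interaction was -1.21 on the log2 scale for the Emx2 peak and -0.78 for the Pax6 sum. The Emx2 call, at an adjusted p of 0.0497 by edgeR's quasi-likelihood test, was lost in 21 alternatives, 18 of them fits that left out 1 library, with adjusted p of 0.0528 to 0.237. The Pax6 call was lost without Q140 F2 and Q140_Msh3KO M1 together (adjusted p = 0.0891 by the same test). Gene sums were run under fewer alternatives than peaks, and in no fit that left out 1 library.

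Of 132 groups of 6 animals checked for a library far from the others, 2 held one (1.52%, where chance gives about 5%). Msh3KO F1 had 5.92 CPM at the Nkx2-5 peak at 26838972, with the other Msh3KO animals at 3.78 to 4.28. Msh3KO F2, the library of lowest depth, had 3.32 CPM at the Pax2 peak at 44756870, with the other Msh3KO animals at 0.455 to 1.5. Neither group enters a called comparison of these peaks directly.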

How the results depend on the processing

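Of 1127 recomputed values for 47 single results (peaks and gene sums), 0 changed direction and 96 lost their call. In every fit run for them, 32 of the 47 kept their call. Peaks met far more alternatives than gene sums did. The sums were refitted only with DESeq2-style size factors, with the replicate block, and without Q140 F2 and Q140_Msh3KO M1 together. No sum was refitted with 1 library left out. Member peaks higher in Q140 than in WT numbered 19 to 38 with 1 library left out (19 without Q140 F2), and lower ones 5 to 10 (5 without WT F2 or WT M1). Calls over all tested peaks moved as well. Without Q140 F2, 4556 rose in place of 6142, and without WT F2 or WT M1, 7687 or 7068 fell in place of 8924. Member peaks lower in Q140_Msh3KO than in Q140 numbered 9 to 13. Q140_Msh3KO against Msh3KO gave 0 to 1 lower, Q140_Msh3KO against WT 0 to 1 higher and 0 to 1 lower, and the interaction 0 to 2 lower. The Pax6 peak at 104 kb lost its call against WT in 8 of these 24 fits, with adjusted p up to 0.122. Without Q140 F2 and Q140_Msh3KO M1 together, 6 peaks and 2 gene sums (in place of 4) were lower in Q140_Msh3KO than in Q140. Lower calls over all tested peaks numbered 72 in that fit, in place of 320. The interaction gave 0 peaks and 0 sums there. It also gave 0 peaks with DESeq2-style size factors and with limma-voom. The 21 member peaks of the promoter class were also counted on their own, within the main fit and its adjustment. Of these, 2 were higher and 0 lower in Q140 than in WT, and 2 were lower in Q140_Msh3KO than in Q140. None was called in Q140_Msh3KO against WT or in the interaction. These counts are a part of the main counts and not a new fit. In Q140_Msh3KO against WT, 1 peak (Alx4 at 93714552) was lower with total counts, no filter, the replicate block or DESeq2. With the replicate block, counts in Q140 against WT were 32 higher and 9 lower, and 11 were lower in Q140_Msh3KO than in Q140. The labels do not say whether replicate numbers pair the animals. Of 36 same-numbered pairs, 11 had a correlation of deviations over 0.1 (range -0.438 to 0.448). Each of the 24 libraries was set against libraries of the same sex and other genotypes, and 15 correlated best with one of their own number. With only 3 numbers per sex, many such matches arise by chance. No rate was computed for differently numbered pairs. The counts are thus at most a hint of shared structure, from the data and not from the design, which the main fit does not model. Several called peaks rest on fewer than 20 counts per library, which limits the precision of their fold changes.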

Other observations

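Several member genes have a partner transcribed from the opposite strand, whose peaks carry another gene symbol and so fall outside the members. These partners were chosen after their values were seen. Of 15 tested peaks of 6 such partners, 2 rose and 0 fell in Q140 against WT. Both belong to Emx2os, and over all tested peaks 4.2% rose and 6.11% fell. The peak at the Emx2os start (chromosome 19, 59458125 to 59458897) averaged 8.11 ± 0.946 CPM in Q140, 4.97 ± 0.576 in Q140_Msh3KO, 4.58 ± 1.36 in Msh3KO and 4.37 ± 0.682 in WT (SD, n = 6 each). It changed by 0.87 ± 0.15 in Q140 against WT (edgeR's quasi-likelihood test, adjusted p = 7.7e-05) and by -0.70 ± 0.15 in Q140_Msh3KO against Q140 (adjusted p = 0.0143), comparisons that share the Q140 animals. The Emx2os peak at 59457369 changed by 1.20 ± 0.24 in Q140 against WT.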
